A study of Mus musculus with 6 samples.

Results

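The expression of 10 genes, of 18784 measured, that encode transcription factors and a coactivator of B cell identity and plasma cell fate was followed in mouse B lymphoma cells with and without knockdown of Dhx9, an RNA and DNA helicase gene. They are defined by gene symbol, with no measured value in the definition, although they were picked with earlier results of these arrays known. They are the ETS factors Spib and Spi1, the B cell specification and commitment factors Ebf1 and Pax5, the octamer coactivator Pou2af1, the zinc finger factors Ikzf1 and Ikzf3, and the regulators of the germinal centre and plasma cell stages Bcl6, Prdm1 and Zbtb32. Each of the 10 had 1 probe set, and no filter on dim genes was applied. All 6 samples were Arf-/- Eu-myc/Bcl-2 lymphomas: both groups lacked the tumour suppressor Arf, carried the Eu-myc transgene, which drives MYC from an immunoglobulin heavy chain enhancer in B lineage cells, and carried Bcl-2. The control group held 3 arrays of cells transduced with the hairpin Rluc.713, named for Renilla luciferase, and the knockdown group 3 arrays of cells with the hairpin Dhx9.1241. The cells were cultured on irradiated Arf-/- mouse embryonic fibroblasts, and the labels name no drug on these arrays, do not give the age of the mice, and do not say how many primary lymphomas were used or whether the arrays of a group came from separate cultures. The p-values therefore reflect only how far these arrays differ from each other, which may be technical variation, and 3 arrays a group limit the precision.

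B cell identity is built in layers. PU.1, the product of Spi1, and Ikaros, the product of Ikzf1, act in early progenitors, EBF1 then opens the B cell programme, and PAX5 holds cells to it while silencing genes of other lineages. In mature B cells BCL6 maintains the germinal centre state, and Blimp-1, the product of Prdm1, shuts down the B cell programme as cells turn into plasma cells. Spi-B, the product of Spib, is an ETS relative of PU.1 that is largely restricted to lymphoid cells and plasmacytoid dendritic cells and is itself silenced by Blimp-1, and ZBTB32 is a BTB zinc finger repressor found in activated lymphocytes that can act together with Blimp-1.

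Of the 10 factors, Zbtb32 rose 1.81-fold and Spib was 1.46-fold lower in the Dhx9.1241 cells, and these 2 passed the threshold, an adjusted p under 0.05 in limma's moderated test with Benjamini-Hochberg adjustment over all genes. The other 8 did not pass, 5 of them lower and 3 higher in the mean. In all genes tested 3.14% passed, 2.07% higher and 1.07% lower. The plot of levels by array shows each factor, and all levels are log2 values from robust multi-array averaging (RMA), in which 1 unit is a doubling. Probes bind with different strength, so the factors are not ranked by level against each other. Where a signal is placed among those of all genes tested, this describes the brightness of the probe set and not the abundance of the transcript.

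**Figure D1:**
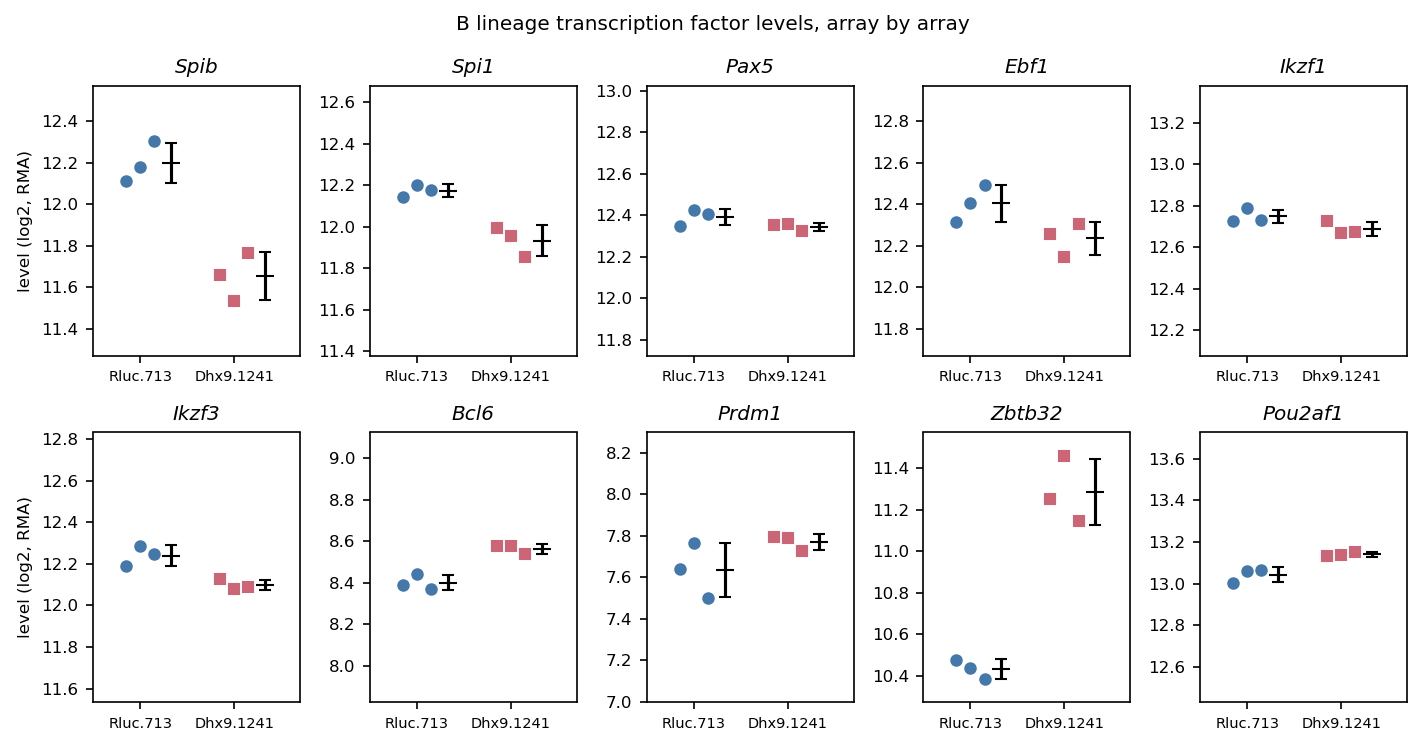
Level of each of the 10 factors on every array, on a log2 axis that covers the same span in each panel; circles are the 3 Rluc.713 arrays, squares the 3 Dhx9.1241 arrays, in the order of replicate 1 to 3, and bars the mean and SD (n = 3). The groups of Zbtb32 and Spib are separated by 0.67 and 0.35, and those of Pax5, Ikzf1 and Prdm1 overlap.

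Sequences just upstream of the start are shown for the 2 genes that passed, since Spi-B and PU.1 belong to the ETS family, whose members bind around a GGAA core. The 250 bases before each start were taken from RefSeq (build GRCm38.p6), which has 1 start for Spib and 2 for Zbtb32, and capitals mark each GGAA core, written TTCC where it lies on the other strand. Spib is at chr7:44532072-44532321 on the minus strand, the first Zbtb32 window at chr7:30598910-30599159 and the second at chr7:30592943-30593192, both also on the minus strand.
Spib: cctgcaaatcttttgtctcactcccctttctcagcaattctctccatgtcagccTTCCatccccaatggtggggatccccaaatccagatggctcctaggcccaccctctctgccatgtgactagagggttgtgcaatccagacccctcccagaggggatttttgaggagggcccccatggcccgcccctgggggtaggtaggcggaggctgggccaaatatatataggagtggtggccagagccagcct
Zbtb32, first start: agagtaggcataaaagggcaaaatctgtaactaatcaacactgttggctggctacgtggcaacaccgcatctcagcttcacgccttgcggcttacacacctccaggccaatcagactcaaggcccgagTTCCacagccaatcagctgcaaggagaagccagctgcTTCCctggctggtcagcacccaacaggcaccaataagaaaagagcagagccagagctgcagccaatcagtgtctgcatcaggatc
Zbtb32, second start: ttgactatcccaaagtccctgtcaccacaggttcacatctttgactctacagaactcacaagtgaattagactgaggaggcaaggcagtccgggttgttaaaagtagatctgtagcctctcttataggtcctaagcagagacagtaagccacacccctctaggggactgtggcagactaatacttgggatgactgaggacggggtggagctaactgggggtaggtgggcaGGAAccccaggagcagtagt

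The Spib window held 1 GGAA core, and the Zbtb32 windows held 2 and 1. On both strands 93.4% of the 32851 RefSeq windows of this length hold a GGAA core, so its presence does not set these genes apart. The longer form GAGGAA, which contains the core and is typical of sites for PU.1 and Spi-B, was in 3 of the 12 windows of these factors (1 each of Bcl6, Ebf1 and Prdm1) and in 23.3% of all windows. The letters CCCNNGGG, the centre of the EBF1 site, matched the Spib window in 2 overlapping frames and 1 Ikzf1 window, against 11.8% of all windows. Of the other motifs searched on both strands, the octamer ATGCAAAT matched 0 of the 12 windows and 1.6% of all. The Ikaros core TGGGAA, which also contains the GGAA core, matched 2 of the 12 (Ebf1 and Prdm1) and 21.6% of all. TTCNNNGAA, the centre of the BCL6 site, matched both Bcl6 windows and 7.02% of all, and GAAAGT, from the Blimp-1 site, matched 2 of the 12 (Bcl6 and Ebf1) and 12.3% of all. Of the 10 genes, 8 had entries in this table; Spi1 and Ikzf3 were not matched. A match of letters is no evidence of binding, and binding was not measured.

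The arrays fitted their labels with respect to the hairpin, and 1 control array stood apart. Dhx9 was 1.99-fold lower in the Dhx9.1241 cells (log2 change -0.99, SE 0.053, adjusted p = 0.000129), while Dhx29, the gene that some labels name for the same arrays, differed by 0.04 on the log2 scale (adjusted p = 0.857). Array medians lay between 8.43 and 8.51. Control replicate 1 lay at 16.74 on the second principal component, against -4.81 and -5.29 for the other controls. Of the Dhx9.1241 arrays, replicate 2 lay on the same side, at 3.62, and replicates 1 and 3 at -5.61 and -4.65. For 7 of the 10 factors it was the lowest control, as it was for 62.9% of the 1879 genes in the top 10% of levels and for 38.8% of all genes. Without it 4.77% of all genes passed (896), against 3.14% (590) with all arrays. The counts were 249 without control replicate 2, 289 without control replicate 3, and 205, 248 and 223 without Dhx9.1241 replicates 1, 2 and 3. Without control replicate 1, the factors that passed were Zbtb32 (log2 change 0.87), Spib (-0.59) and Spi1, against Zbtb32 and Spib with all arrays.

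Both ETS factors had lower means in the Dhx9.1241 cells, and Spib passed the threshold. Spib (probe set 272382_at) stood at 12.11, 12.18 and 12.30 in the control and at 11.66, 11.54 and 11.77 in Dhx9.1241. All 3 Dhx9.1241 arrays lay below all 3 controls, with a gap of 0.35 that exceeded the range within either group (0.19 and 0.23). The mean fell from 12.20 ± 0.097 to 11.65 ± 0.115 (SD, n = 3), and the log2 change of -0.54 had an SE of 0.075, a 95% interval of -0.72 to -0.37 and an adjusted p of 0.00806 by limma. It was the 43rd largest fall among all genes. Spib passed in all 6 fits that left out 1 array, with adjusted p-values from 0.0054 to 0.0473, and in all 16 alternatives tried. Because these are bulk samples, fewer cells expressing a gene and less RNA per cell cannot be told apart, here or for any gene below.

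Spi1 (20375_at), whose product PU.1 binds sites like those of Spi-B, stood at 12.15, 12.20 and 12.18 in the control and at 12.00, 11.95 and 11.85 in Dhx9.1241. The groups did not overlap, but the difference missed the threshold, with a log2 change of -0.24 whose SE was 0.054, interval -0.36 to -0.12 and adjusted p 0.0572 by limma. Without control replicate 1 it passed (-0.26, adjusted p = 0.0435). It also passed in 6 of the other 15 alternatives, each of which called more genes in all than the 3.14% above. These were the filters on dim genes at the 25th percentile (5.1% of genes passed) and the median (10.6%), repeated quantile normalization (4.62%), cyclic loess (4.51%), a variance trend with robust estimation (6.06%) and array weights (6.45%). Leaving out any other 1 array gave adjusted p-values up to 0.194.

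The B cell specification and commitment factors Ebf1 and Pax5 did not pass. Ebf1 (13591_at) stood at 12.31, 12.41 and 12.49 in the control and at 12.26, 12.15 and 12.30 in Dhx9.1241. Its groups were separated by 0.01, less than the range within either group, and it differed by -0.17 (SE 0.065, interval -0.32 to -0.02, adjusted p = 0.272). Pax5 (18507_at) stood at 12.35, 12.42 and 12.41 in the control and at 12.35, 12.36 and 12.32 in Dhx9.1241, and the groups overlapped. The interval of its change of -0.05 ran from -0.16 to 0.06, so that at this precision a fall of more than 0.16 lay outside it.

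Pou2af1 (18985_at), which encodes the coactivator OCA-B that octamer factors recruit in B cells, stood at 13.00, 13.06 and 13.07 in the control and at 13.13, 13.14 and 13.15 in Dhx9.1241. All Dhx9.1241 arrays lay above all controls, by 0.06, but the change of 0.10 (SE 0.046, interval -0.01 to 0.20, adjusted p = 0.417) did not pass in the limma test or in any of the 16 alternatives. Its level was in the top 10% of all genes tested, as were those of 6 other factors: Spib, Spi1, Pax5, Ebf1, Ikzf1 and Ikzf3.

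The Ikaros family genes, whose products bring chromatin remodelling complexes to lymphoid genes, did not pass. Ikzf1 (22778_at) stood at 12.73, 12.79 and 12.73 in the control and at 12.73, 12.67 and 12.67 in Dhx9.1241, with overlapping groups and a change of -0.06 (interval -0.17 to 0.05, adjusted p = 0.722). Ikzf3 (22780_at), the gene of Aiolos, stood at 12.19, 12.29 and 12.25 in the control and at 12.13, 12.08 and 12.09 in Dhx9.1241. All 3 Dhx9.1241 arrays were below the controls, by 0.06, and the change of -0.14 (SE 0.049, interval -0.25 to -0.03, adjusted p = 0.21) did not pass; it passed in 1 of 16 alternatives, a variance trend with robust estimation (adjusted p = 0.0332).

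Among the factors of the germinal centre and plasma cell stages, Zbtb32 rose and the levels of Bcl6 and Prdm1 did not pass. Zbtb32 (58206_at) stood at 10.48, 10.44 and 10.38 in the control and at 11.25, 11.46 and 11.15 in Dhx9.1241. The 3 controls were close together, and the lowest Dhx9.1241 array, replicate 3, was still 0.67 above the highest control. The mean rose from 10.43 ± 0.046 to 11.29 ± 0.16 (SD, n = 3), and the log2 change of 0.85 had an SE of 0.080, an interval of 0.67 to 1.04 and an adjusted p of 0.00163 by limma. It was the 20th largest rise among all genes, and it passed in all 16 alternatives, with adjusted p-values up to 0.0129. The change ranged from 0.77 to 0.92 over those alternatives.

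Bcl6 (12053_at), the repressor that holds cells in the germinal centre state, stood at 8.39, 8.44 and 8.37 in the control and at 8.58, 8.58 and 8.54 in Dhx9.1241. The groups were separated by 0.10, but the change of 0.16 (SE 0.047, interval 0.06 to 0.27, adjusted p = 0.129) did not pass. It passed only where dimmer genes, below the median level, were left out before testing (adjusted p = 0.0395). With that filter 10.6% of genes passed, and Bcl6 lay just above its cutoff, at the 50.2nd percentile of mean levels. Prdm1 (12142_at) stood at 7.64, 7.76 and 7.50 in the control and at 7.79, 7.79 and 7.72 in Dhx9.1241. Its control replicate 2 reached above the lowest Dhx9.1241 array, and the change of 0.13 (interval -0.03 to 0.29, adjusted p = 0.492) did not pass. The Prdm1 signal was in the lower part of the array, at the 34.7th percentile of mean levels, where RMA tends to compress differences.

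**Figure D2:**
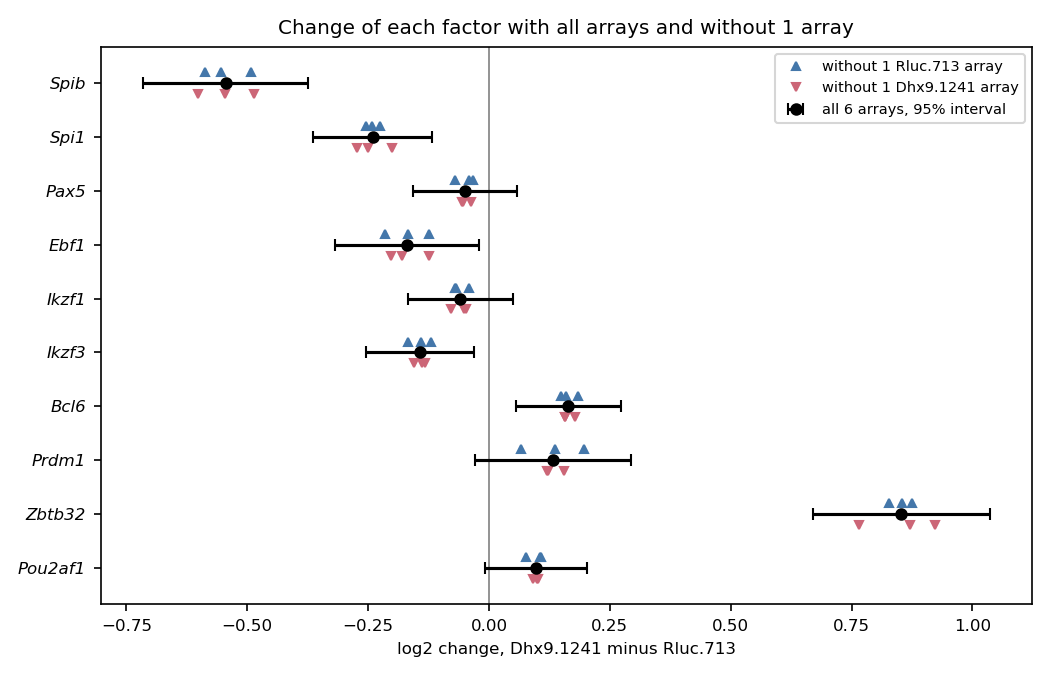
Log2 change of each factor (x axis) with its 95% interval in black, and the change when 1 control array (upward triangles) or 1 Dhx9.1241 array (downward triangles) was left out. Zbtb32 at 0.85 and Spib at -0.54 lie apart from the other 8, which lie between -0.24 and 0.16, and all 10 kept their sign.

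As a group the factors did not move in 1 direction. Changes were negative for 6 and positive for 4, with a median of -0.05 against 0.00 over all genes, and the median absolute change was 0.15 against 0.05. Over genes at or above the median level, which include 9 of the 10 factors, the median absolute change was 0.06. The groups of arrays did not overlap for 7 of the 10, 4 lower (Spib, Spi1, Ebf1 and Ikzf3) and 3 higher (Zbtb32, Bcl6 and Pou2af1), against 20.1% of all genes, 8.51% lower and 11.6% higher. An unadjusted p under 0.05 was reached by 6 of the 10, 4 lower and 2 higher, and by 14.1% of all genes, both counts including the genes that passed. Since the factors were picked with earlier results in view, these shares are descriptive. The shares of all genes, like the 3.14% that passed, cover genes at every level. Of the 10 factors, 7 were in the top 10% of levels. The plot of change against level places the 10 factors among all genes.

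**Figure D3:**
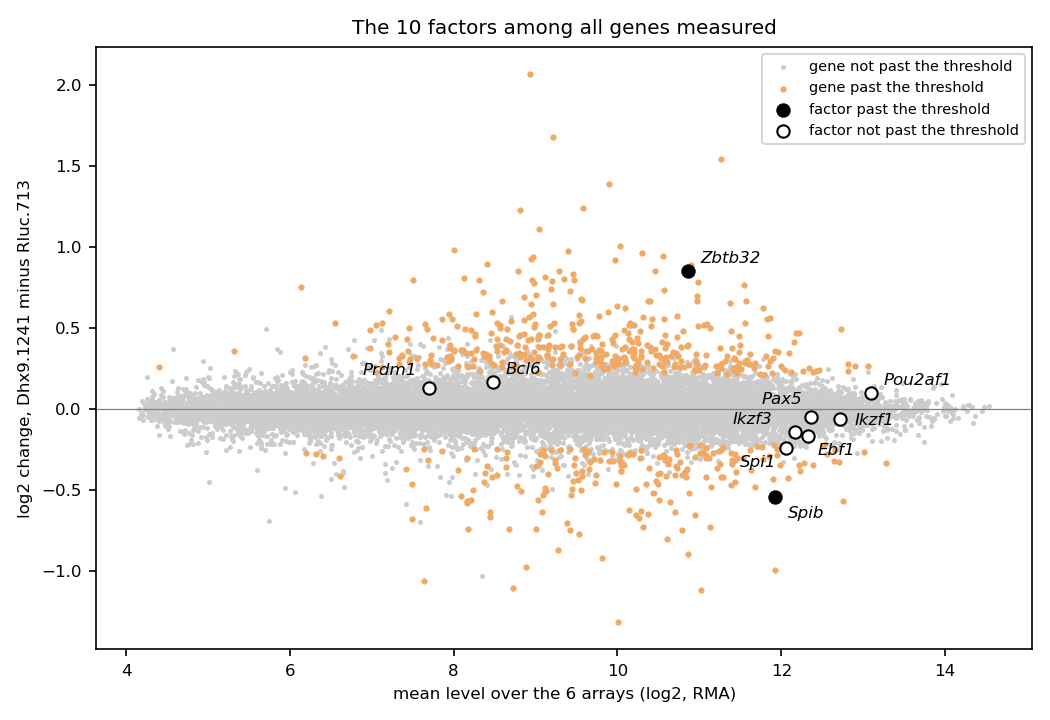
Log2 change (y axis) against mean level over the 6 arrays (x axis, log2) for 18784 genes, with genes past the threshold in orange and the 10 factors as large circles, filled where they passed. Zbtb32 and Spib lie outside the grey band, and the other 8 factors lie in or at its edge.

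The genes whose 6 array values most resembled those of the 2 changed factors were found by Pearson correlation over the 6 arrays, as a description in which the difference between the groups weighs most. For Spib they were Slc16a6 (r = 0.996, log2 change -0.28), Sec23b (r = 0.996, -0.21) and Hivep2, which encodes a zinc finger factor (r = 0.996, -0.62). For Zbtb32 they were the protease inhibitor gene Slpi (r = 0.999, log2 change 0.42), Znrd2 (r = 0.998, 0.27) and the lipase gene Lipg (r = 0.997, 0.98). All but Sec23b (adjusted p = 0.0643) passed the threshold. Slpi and Lipg passed in each of the 6 fits that left out 1 array, Hivep2 in 3 of them, and Slc16a6, Znrd2 and Sec23b in that without control replicate 1 alone.

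Other transcription factors of the B lineage showed 3 rises and no falls among 39 measured genes, with a list median of 0.03. Klf3, a Kruppel-like factor of B cell development, stood at 8.89, 9.15 and 9.08 in the control and 9.84, 9.89 and 9.90 in Dhx9.1241, a 1.78-fold rise (adjusted p = 0.000991) that held in each of the 6 fits without 1 array. Mybl1, a germinal centre gene, rose by 0.41 (adjusted p = 0.0431) and the quiescence factor gene Klf2 by 0.37 (adjusted p = 0.0166). The Mybl1 call was lost without control replicate 3 or any 1 Dhx9.1241 array, and the Klf2 call without control replicate 2 or any 1 Dhx9.1241 array. The other 36 did not pass, among them Irf4 (0.12), Irf8 (-0.13), Bach2 (-0.04), Foxo1 (0.04) and Tcf3 (-0.05). Without control replicate 1 the list held 3 rises and 2 falls. The share that passed, 7.69%, compares with 3.14% of all genes. An unadjusted limma p under 0.05 was reached by 8 higher and 8 lower genes of the list, and by 14.1% of all genes.

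None of 18 measured ETS relatives of Spib and Spi1 passed in limma. At an unadjusted p under 0.05, 2 of them were higher and 4 lower, where 14.1% of all genes reached it in either direction. Elk3 (-0.22, adjusted p = 0.0838) and Etv5 (-0.19, adjusted p = 0.192) had the largest changes, and the list median was -0.02. Spic, the third gene of the Spi subfamily, had a change of 0.08 at a dim signal of 5.62 ± 0.078 in the control (SD, n = 3). When control replicate 1 was left out, 1 of the 18 fell.

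Genes that PU.1 or Spi-B is known to bind or activate numbered 20 measured, of which 3 fell and none rose, with a median of -0.10. Lyz2, the lysozyme gene of macrophages and neutrophils, stood at 10.64, 10.75 and 10.60 in the control and 9.42, 9.23 and 9.39 in Dhx9.1241, a level 2.49-fold lower (adjusted p = 0.000129). Fcmr, the IgM receptor gene, was 1.86-fold lower (adjusted p = 0.000488) and Csf1r, the macrophage growth factor receptor gene, 1.37-fold lower (adjusted p = 0.016). Btk, the B cell receptor kinase gene, had a change of 0.07. The 4 genes that were higher at an unadjusted p under 0.05 did not pass. They were P2ry10 (0.57, adjusted p = 0.0739), Ms4a1 (0.31, adjusted p = 0.0717), Cd40 (0.24, adjusted p = 0.0641) and Itgam (0.21, adjusted p = 0.152). Lyz2 and Fcmr passed in each of the 6 fits without 1 array, while Csf1r passed in 2 of them, those without control replicate 1 and control replicate 3. Without control replicate 1 the list held 2 rises and 4 falls.

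Lyz2 and Csf1r are also markers of myeloid cells, so the other myeloid markers are given beside them. Of 19 measured myeloid markers 5 fell and none rose: Lyz2, Csf1r, Tyrobp (-0.37), Cd33 (-0.34) and Fcer1g (-0.32). This share of 26.3% compares with 3.14% of all genes. An unadjusted limma p under 0.05 was reached by 1 higher and 6 lower markers, and by 14.1% of all genes. In the mean 15 were lower and 4 higher, and the marker with the largest change upward was Itgam, an integrin gene that is also in the list of PU.1 and Spi-B targets. Itgam differed by 0.21 (adjusted p = 0.152), with all Dhx9.1241 arrays above all controls, and Ly6c1 by 0.17 (adjusted p = 0.483) with overlapping groups. Their summed linear signal was 12014 to 12316 in the control and 10112 to 10374 in Dhx9.1241, with no overlap. Without Lyz2 it was 10423 to 10625 and 9511 to 9688, also with no overlap. Without Ctss, the brightest, it was 9279 to 9545 and 7413 to 7688, again with no overlap. No marker was at 0 on any array, and RMA values do not reach 0. Without Dhx9.1241 replicate 3, 2 of the 5 passed, and without control replicate 2 or Dhx9.1241 replicate 1 or 2, 3 did. Spi1 is itself expressed in myeloid cells, and the part of this shift in the Spi1, Lyz2 and Csf1r values was not tested.

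Genes that PAX5 or EBF1 activates showed 1 fall among 17 measured genes (5.88%, against 3.14% of all genes), with a median of -0.07. An unadjusted limma p under 0.05 was reached by 3 lower genes and no higher one, and by 14.1% of all genes. Vpreb3, which encodes a surrogate light chain relative, stood at 13.05, 13.04 and 13.03 in the control and 12.44, 12.45 and 12.52 in Dhx9.1241, a level 1.49-fold lower (adjusted p = 0.000891) that passed in each of the 6 fits without 1 array. The other 16 did not pass, among them the complement receptor gene Cr2 (-0.36, adjusted p = 0.0687), Cd79a (-0.11) and Ciita (0.13), the gene of the MHC class II activator. Without control replicate 1, 2 of the 17 fell.

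Of 15 measured germinal centre genes Mybl1 rose (with 1 array left out it passed 2 times in 6, as above) and 14 did not pass, with Cxcr5, the follicle homing receptor gene, at 0.34 (adjusted p = 0.0667) and a median of 0.11. The share that passed was 6.67%, against 3.14% of all genes. At an unadjusted limma p under 0.05, 6 were higher and none lower, against 14.1% of all genes in either direction. Of 12 measured genes that BCL6 represses, 2 rose, 1 fell and 9 did not pass, with a median of -0.04. The share that passed was 25.0%, and at an unadjusted limma p under 0.05, 2 were higher and 3 lower. Cd80, a costimulatory ligand gene, stood at 9.32, 9.59 and 9.63 in the control and 10.45, 10.37 and 10.49 in Dhx9.1241, a 1.90-fold rise (adjusted p = 0.00135). Cdkn1a, the gene of the cell cycle inhibitor p21, rose by 0.47 (adjusted p = 0.00954), and the chemokine gene Ccl3 fell by 0.64 (adjusted p = 0.043). Cd80 passed in each of the 6 fits without 1 array, Cdkn1a in all but the fit without Dhx9.1241 replicate 3 (adjusted p = 0.0545), and Ccl3 only in that without Dhx9.1241 replicate 2. This list also contains Prdm1.

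Of 21 measured plasma cell genes 1 rose (4.76%, against 3.14% of all genes) and none fell, with a median of 0.03. An unadjusted limma p under 0.05 was reached by 4 higher genes and 1 lower gene, and by 14.1% of all genes. The gene that rose was Slamf7, a surface receptor gene of plasma cells and activated lymphocytes, from 11.92 ± 0.043 to 12.26 ± 0.042 (SD, n = 3), a change of 0.35 (adjusted p = 0.0098) that was lost without Dhx9.1241 replicate 1 or 3 (adjusted p up to 0.0588). Xbp1, the factor that expands the secretory apparatus, had a change of -0.07, the plasma cell surface marker gene Sdc1 0.18, and Jchain, the immunoglobulin joining chain gene, -0.06. Derl3, of endoplasmic reticulum quality control, had a change of 0.32 (adjusted p = 0.0587). When control replicate 1 was left out, 2 plasma cell genes rose.

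Of 19 measured Ikaros relatives, partners and targets in early B cells, Hdac1, a histone deacetylase gene, fell by 0.32 (adjusted p = 0.0194) and 18 did not pass, with Chd4, the remodeller that Ikaros binds, at -0.04 and a median of -0.02. The share that passed, 5.26%, compares with 3.14% of all genes. An unadjusted limma p under 0.05 was reached by 3 lower genes and no higher one, and by 14.1% of all genes. The Hdac1 call held in 2 of the 6 fits without 1 array, those without control replicate 1 and Dhx9.1241 replicate 3. It was lost without control replicate 2 or 3 and without Dhx9.1241 replicate 1 or 2.

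**Figure D4:**
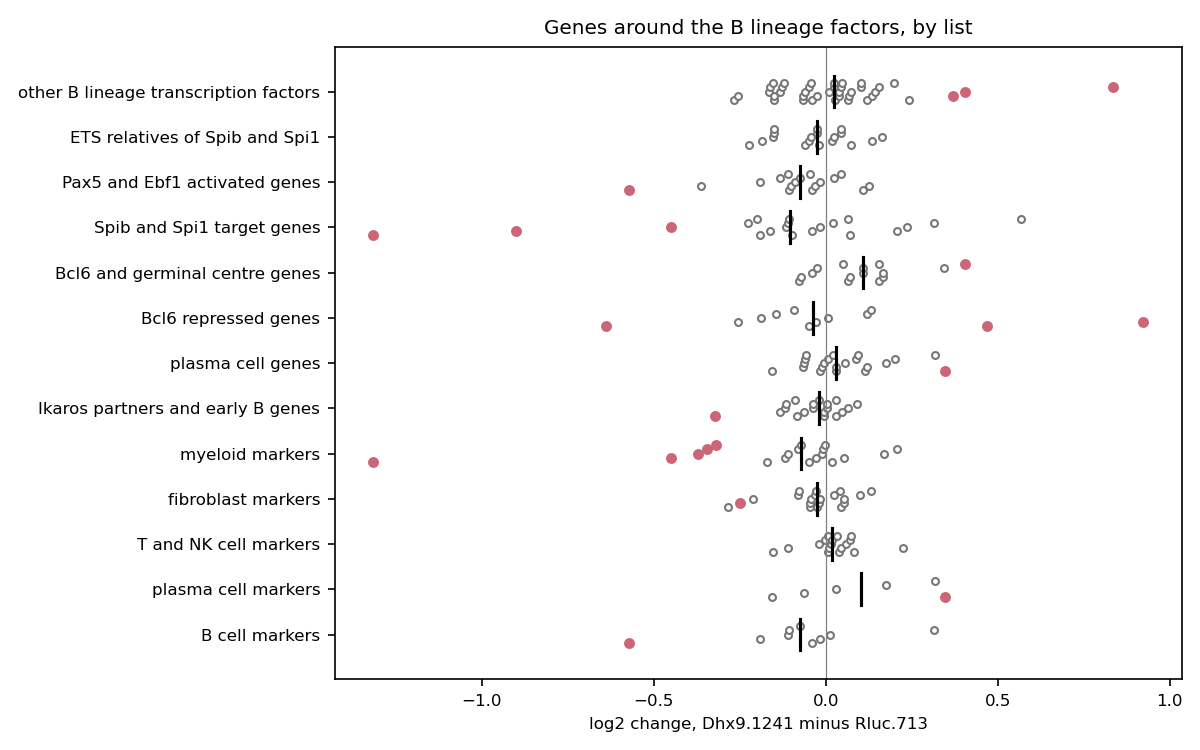
Log2 change (x axis) of every measured gene in each list (rows), with genes past the threshold filled, other genes open and the list median as a bar; vertical scatter within a row has no meaning. Medians lie between -0.10 and 0.11, and at most 5 genes of a list passed, those 5 in the myeloid list.

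The labelled cell type was compared with its markers, as far as probe set brightness allows, which depends on the probes as well as the transcript. The probe sets of all 9 measured B cell markers were brighter than the median of all genes tested, and those of 16 of 17 T and NK cell markers were dimmer. At or above that median were also 8 of 19 myeloid markers, 8 of 20 fibroblast markers and 4 of 6 plasma cell markers. Of the B cell markers 1 (Vpreb3) fell, 11.1% against 3.14% of all genes. At an unadjusted limma p under 0.05, 1 was higher and 2 lower, against 14.1% of all genes in either direction. In the mean 7 were lower and 2 higher. Ms4a1 was higher by 0.31 (adjusted p = 0.0717), with all Dhx9.1241 arrays above all controls. The summed signal of the 9 B cell markers was 73551 to 79184 in the control and 68903 to 72628 in Dhx9.1241, with no overlap. Without Vpreb3, the largest change, it was 65043 to 70814 and 63299 to 66775, which overlap. Without Cd79b, the brightest, it was 58529 to 64264 and 54674 to 58098, which do not. Of the T and NK cell markers none passed in limma, with 1 higher and none lower at an unadjusted p under 0.05. Klrb1c differed by 0.22 and Zap70 by -0.15, and the summed signals of the 17 overlapped (7921 to 8129 and 7899 to 8314). Of 20 markers of fibroblasts, the feeder cell type, 1 passed (5.0%). It was Cav1, which fell by 0.25 (adjusted p = 0.0485), a call lost in each of the 6 fits without 1 array. In the mean 13 of the fibroblast markers were lower and 7 higher. Their summed signal was 19766 to 20242 in the control and 20662 to 21424 in Dhx9.1241, a rise that came from Vim, which is not particular to fibroblasts (0.13, adjusted p = 0.227). Without Vim the sum of the other 19 was 5644 to 6310 and 5640 to 5731, which overlap. With Vim kept and Fn1, the largest change, left out, the sum was 19264 to 19799 and 20314 to 20988, which do not. Of 6 plasma cell markers 1 rose (16.7%), Slamf7, with 2 rising without control replicate 1 and none without Dhx9.1241 replicate 1 or 3. At an unadjusted limma p under 0.05, 3 were higher and 1 lower, against 14.1% of all genes. The lower one was Mzb1 (-0.16, adjusted p = 0.168), with all Dhx9.1241 arrays below all controls. The summed signal of the 6 was 13205 to 13737 in the control and 13887 to 14460 in Dhx9.1241, with no overlap. Without Slamf7, the largest change, it was 9463 to 9764 and 8866 to 9489, which overlap. Without Mzb1, the brightest, it was 5465 to 5903 and 6940 to 7175, which do not. The part of these shifts in the levels of the 10 factors was not tested.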

How the data were processed

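RNA of 6 samples was labelled with a 3′ in vitro transcription kit and hybridised to Affymetrix arrays, per the labels. The deposited log2 values, 1 per probe set and array, were made by the authors with RMA, per the submitters' processing notes. Not given in the sources used here are the RMA version and settings, the build, and how probe sets were defined. Values from 3.97 to 14.57 fit a log2 scale. Of 21212 probe sets, 18786 had 1 gene symbol in the platform annotation, 6 had several and 2420 are unnamed here; symbols were updated by Entrez number for 18775. The probe set with the highest mean was kept for 2 genes with more than 1, leaving 18784 genes.

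Dhx9.1241 minus Rluc.713 was fitted with limma 3.58.1 in R 4.3.3 (two-sided, no covariate). The code was run on simulated data with independent noise for each gene and array. Such data lack shared deviations like that of control replicate 1, so they cannot test how the fit handles them. Adjusted p-values are from the limma fit of the measured arrays over all genes. The 10 factors and the gene lists were chosen with earlier results of these data known. Named genes were all 10 factors, Dhx9 and Dhx29, up to 4 changed genes per list with the largest change, or the largest 2 where none passed, and the 3 genes most correlated with each changed factor; other list genes named were chosen after their values were seen. List genes that were not measured were not analysed here. Alternatives were other probe set rules, filters on dim genes at the 25th and 50th percentile, normalizations and variance models, array weights, a block for the replicate number, and leaving out each array.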

Additional observations from a re-analysis of the deposited data

How the results depend on the processing

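Spib and Zbtb32 passed in all 16 alternatives, and neither the 10 factors nor the 27 other genes named by rule changed sign in any of them. The count of factors past the threshold was 2 with all arrays and 4 both with genes below the median level left out (10.6% of genes passed) and under the variance trend with robust estimation (6.06%); it was 2 to 3 without 1 array. Of all genes, 590 passed, against 991 with genes below the median level left out, 1139 under the variance trend with robust estimation, 1211 with array weights, and 205 to 896 without 1 array. Of 427 values of those 27 genes under alternatives, 355 stayed on their side of the threshold, 57 fell short of it and 15 newly passed; genes named only as further examples were not followed in this way, and the cause was not tested.

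Deviations of equally numbered arrays from their group means correlated at -0.27, -0.34 and 0.24. Those of unequally numbered arrays correlated at -0.37 to 0.48, the highest for control replicate 1 and Dhx9.1241 replicate 2. Deviations within a group of 3 constrain each other, so these values cannot settle whether the replicate numbers pair the arrays. With a replicate block 264 genes passed, and 2 factors, again Spib (adjusted p = 0.0129) and Zbtb32. The number of arrays limits the precision, and for dim genes such as Prdm1 the signal lies closer to background.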
